A study of Homo sapiens with 16 samples.

Results

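The HCC1954 gene list was described through every row of its deposited table of Gene Ontology biological processes, which holds 37 terms and names 30 distinct genes, out of 351 terms and 2676 distinct genes in the tables of both cell lines of the series. HCC1954 is a human breast cancer line with amplified ERBB2, and the cells injected into mice were its brain metastatic derivative. The series profiles brain metastases by Flura-seq, in which tumour cells that carry a converting enzyme turn 5-fluorocytosine into a fluorinated base that enters their new RNA, and an antibody against BrdU then recovers the marked RNA. For HCC1954 the labels give 2 groups, 4 libraries of input RNA and 4 of immunoprecipitated (IP) RNA. Both groups come from mouse brains taken after 30 days of growth and 12 hours after 250 mg/kg 5-fluorocytosine, so the input libraries also come from mice given the drug. The labels name neither the mouse strain nor any pooling of brains, and mouse brain surrounds the human cells.

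No value per library entered the description. There is therefore no replicate error, no level and no direction for any gene, the library depths are unknown here, and the labelled cell type could not be checked against marker levels. A gene is called named where at least 1 listed term prints its identifier. The authors' deposited table reports its gene numbers as counts and as percentages, from which 88 genes were submitted and 66 of them had a process. The 30 named genes are 45.5% of those 66. The other 36 genes with a process and the 22 without one are not named and are not described.

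The genes in most terms, TGFB1, GAS6 and AXL, belong to signals that pass between cells. Transforming growth factor beta and the bone morphogenetic proteins are secreted dimers that bind pairs of serine/threonine kinase receptors and act through SMAD transcription factors. They restrain the growth of many epithelia and can drive epithelial cells towards a mesenchymal state. GAS6 bridges phosphatidylserine on dying cells to the receptor tyrosine kinases TYRO3, AXL and MERTK, which dampen innate immune signalling and promote the uptake of cell debris, a task of microglia in the brain.

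Sorted by protein class, 4 of the 30 genes encode secreted ligands (13.3%), 4 secreted binding or matrix proteins, 1 a receptor, 2 channels or transporters, 7 other membrane proteins, 5 chromatin or DNA-binding proteins and 7 intracellular signalling proteins or adaptors. Genes and terms meet in 108 memberships, where a membership is 1 gene printed in 1 term. The 4 ligands hold 45 of them, or 41.7% (95% exact binomial interval 32.3 to 51.5, which covers the draw of memberships only and treats them as independent, which they are not). TGFB1 alone holds 21 of the 45, and with TGFB1 left out the share of the ligands is 27.6%. At least 1 ligand stands in 32 of the 37 terms (86.5%). At least 1 ligand or the receptor stands in 33. A gene enters more terms when more terms have been annotated to it, and what part this has in the counts was not tested.

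**Figure D1:**
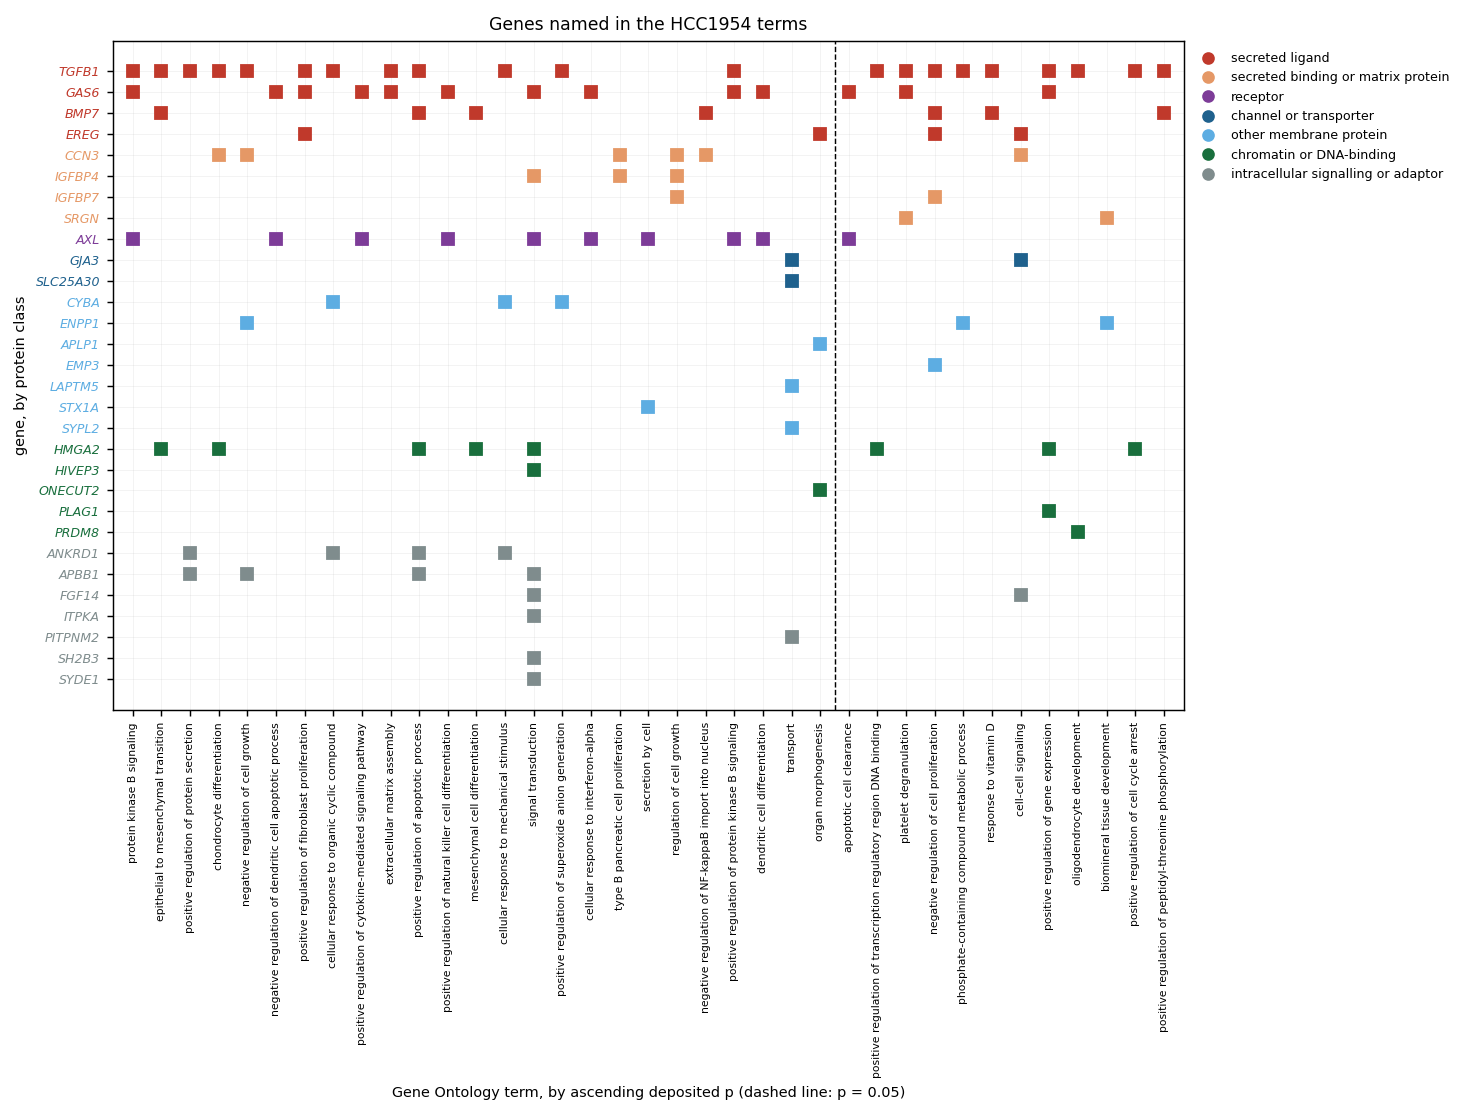
Each square marks a gene (rows, grouped and coloured by protein class) printed in a Gene Ontology term (columns, by ascending p in the authors' deposited table, with a dashed line at p = 0.05). The 4 ligand rows and the AXL row cross 33 of the 37 columns, while 14 rows have a single square.

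The authors' deposited table holds 25 terms of 37 that have an unadjusted p under 0.05 (67.6%), and 0 of 37 with a Benjamini p under 0.05 (0%), the lowest being 0.746. Its highest unadjusted p is 0.0995. All shares given here are therefore of the listed terms, not of all terms tested. Most of the 37 terms hold a ligand, so the nearness of that class to the share over all listed terms says little. For terms that hold a ligand the share is 21 of 32 under 0.05 (65.6%). For chromatin or DNA-binding genes and for secreted binding or matrix proteins it is 6 of 10 each (60.0%), and for other membrane proteins 7 of 10 (70.0%). Channels or transporters have 1 of 2 (50.0%). The 10 terms of the receptor AXL have 9 under 0.05 (90.0%), and the 8 terms with an intracellular signalling protein 7 (87.5%). These shares rest on few terms that share genes, and their differences were not tested.

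Among the ligands, TGFB1 is in 21 terms, GAS6 in 13, BMP7 in 7 and EREG in 4. They share some of their terms, as 11 terms hold at least 2 ligands. TGFB1 stands with neither AXL nor GAS6 in 15 terms, AXL or GAS6 stands without TGFB1 in 8, and the groups meet in 6. All 6 of these hold GAS6, and 2 of them hold AXL. BMP7, which induces bone and shapes the kidney, shares 5 of its 7 terms with TGFB1 (71.4%), and those are 23.8% of the 21 terms of TGFB1. Without TGFB1, BMP7 stands with HMGA2 in mesenchymal cell differentiation and with CCN3 in negative regulation of NF-kappaB import into nucleus, for which the authors' deposited table gives 46.3-fold enrichment and an unadjusted p of 0.0418. EREG encodes epiregulin, which activates EGFR and ERBB4. Its 4 terms are positive regulation of fibroblast proliferation (for which the authors' deposited table gives 14.1-fold enrichment), organ morphogenesis, negative regulation of cell proliferation and cell-cell signaling, and only the first and the second of these have a p under 0.05. EREG thus stands in a term for more proliferation and in one for less, and the table gives no sign of which way it moved.

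The sequence before the start site was available for 23 of the 30 genes, and it is shown for TGFB1, GAS6 and EREG because they are the ligands with a RefSeq start within 1000 bases of the GENCODE gene start. The 250 bases that end just before the RefSeq start are given on the coding strand, 5′ to 3′, from the RefSeq table for GRCh38.p14. Capitals mark the letters searched for on both strands, which are TATAAA for a TATA-type element, CCAAT for the box of that name, GGGCGG for the GC box, TGANTCA for an AP-1 element and GGAATG for a TEAD element, with no letters shared between matches printed here. The windows are chr19:41353923-41354172 (minus strand) for TGFB1, chr13:113864077-113864326 (minus strand) for GAS6 and chr4:74364895-74365144 (plus strand) for EREG.
TGFB1: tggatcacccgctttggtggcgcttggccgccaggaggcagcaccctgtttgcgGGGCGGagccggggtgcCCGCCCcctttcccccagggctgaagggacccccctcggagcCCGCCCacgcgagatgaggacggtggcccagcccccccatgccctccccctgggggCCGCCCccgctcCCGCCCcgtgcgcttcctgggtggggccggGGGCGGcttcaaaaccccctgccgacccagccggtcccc
GAS6: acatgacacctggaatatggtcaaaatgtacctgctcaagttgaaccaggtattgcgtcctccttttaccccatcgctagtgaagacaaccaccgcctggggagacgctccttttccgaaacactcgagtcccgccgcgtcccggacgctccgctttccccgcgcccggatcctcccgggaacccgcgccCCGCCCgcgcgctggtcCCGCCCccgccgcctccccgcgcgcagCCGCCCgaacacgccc
EREG: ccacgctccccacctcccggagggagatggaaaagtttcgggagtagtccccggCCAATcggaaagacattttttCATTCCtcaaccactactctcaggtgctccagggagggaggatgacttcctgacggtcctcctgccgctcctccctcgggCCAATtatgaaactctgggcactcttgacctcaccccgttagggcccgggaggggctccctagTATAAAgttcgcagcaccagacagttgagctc

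The ligand promoters are of different kinds in these letters. TGFB1 has 6 GC boxes and 76.8% G and C, and GAS6 has 3 and 66.8%, with none of the other 4 motifs in either window. EREG has no GC box, 58.0% G and C, 1 TATAAA, 2 copies of CCAAT and 1 TEAD element. Over all 23 windows 14 hold a GC box (60.9%), against 41.3% of 27305 RefSeq windows. These 27305 exceed the 19940 annotated protein-coding genes, so they cannot all belong to such genes, whereas the 23 do. Median G and C is 66.8% over the 23, 64.8% over 2195 windows of genes named for MDA231 and 57.6% over the 27305. CCAAT is in 3 windows (13.0%, against 32.7%), TATAAA in 2 (8.70%, against 11.4%) and TGANTCA in 1 (4.35%, against 6.84%). GGAATG is in 8 windows (34.8%, against 12.1%), namely those of ANKRD1, APBB1, AXL, EREG, GJA3, LAPTM5, PITPNM2 and SYDE1. Of the 23 RefSeq starts, 15 lie within 1000 bases of the GENCODE gene start, a limit that was not planned. The AXL start lies 7552 bases downstream of it, the APBB1 start 14723 and the PITPNM2 start 44499. For 19 of the 23 genes, bases after the RefSeq start were found in a GENCODE transcript of the gene. Among those 15 windows GGAATG is in 5 (33.3%), against 9.65% of 11144 windows of protein-coding genes chosen in the same way. The GC box is in 13 (86.7%, against 59.7%), TATAAA in 2 (13.3%, against 8.95%), TGANTCA in 1 (6.67%, against 4.77%) and CCAAT in 1 (6.67%, against 34.6%). For TATAAA and TGANTCA the order thus turns with the set of windows. A match describes letters only, and these shares were not tested.

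AXL is the 1 receptor named. It shares 9 of its 10 terms with GAS6 (90.0%), and these are 69.2% of the 13 terms of GAS6. The pair has a Jaccard index (shared terms over all terms of either gene) of 0.643, above the 0.400 of ANKRD1 and CYBA, which is next among the pairs that share at least 2 terms. The term of AXL without GAS6 is secretion by cell, shared with STX1A, a SNARE protein of the presynaptic membrane, and enriched 50.9-fold in the authors' deposited table. The terms of GAS6 without AXL number 4, and all 4 hold TGFB1: positive regulation of fibroblast proliferation, extracellular matrix assembly, platelet degranulation and positive regulation of gene expression. The median term of AXL has 11.0 background genes, against 36.0 for TGFB1. AXL also lies beside TGFB1 on chromosome 19: the genes are 39.8 kb apart in the GENCODE annotation of GRCh38, and HNRNPUL1 is the sole protein-coding gene that reaches into the gap. The next closest pair of named genes on any chromosome, AXL and APLP1, is 5339 kb apart.

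Of the 4 secreted binding or matrix proteins, CCN3, IGFBP4 and IGFBP7 share terms with each other, and SRGN shares none with them. CCN3, a matricellular protein, is in 6 terms. IGFBP4 and IGFBP7, which bind insulin-like growth factors, are in 3 and 2, and SRGN, the proteoglycan serglycin of secretory granules, is in 2. This class and the ligands are the sole classes with terms of their own. The 2 such terms here are regulation of cell growth (CCN3, IGFBP4 and IGFBP7, 9.54-fold in the authors' deposited table) and type B pancreatic cell proliferation (IGFBP4 and CCN3). Both terms of SRGN, platelet degranulation and biomineral tissue development, have a p above 0.05 in the authors' deposited table (0.0604 and 0.0925).

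The channel and transporter class is GJA3, a connexin of gap junctions, and SLC25A30, a mitochondrial carrier. They meet in transport, a term of 348 background genes with 3.66-fold enrichment and an unadjusted p of 0.0458 by the authors' deposited table, and they share it with LAPTM5, a lysosomal membrane protein, SYPL2, a relative of the vesicle protein synaptophysin, and PITPNM2, a phosphatidylinositol transfer protein. GJA3 is also in cell-cell signaling, beside CCN3, EREG and FGF14 (4.01-fold and an unadjusted p of 0.0755 by the authors' deposited table). That membership is the sole tie of the transport genes to the rest. With GJA3 left out, LAPTM5, PITPNM2, SLC25A30 and SYPL2 form a separate group.

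Other membrane proteins number 7, and 5 of them are in a single term. CYBA, a subunit of the NADPH oxidase that makes superoxide, is in 3 terms, all of them with TGFB1. These are positive regulation of superoxide anion generation (56.5-fold, with no other gene) and the cellular responses to organic cyclic compound (12.9-fold) and to mechanical stimulus (10.8-fold), the folds being those of the authors' deposited table. Both responses also hold ANKRD1 and list the same 3 genes. ENPP1, an ectoenzyme that makes pyrophosphate, is in 3 terms, 2 of them with TGFB1 and biomineral tissue development with SRGN (20.4-fold in the authors' deposited table). APLP1, a member of the amyloid precursor protein family, stands in organ morphogenesis, and EMP3, a tetraspan membrane protein, in negative regulation of cell proliferation.

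Among chromatin and DNA-binding genes, HMGA2, which binds AT-rich DNA and bends it, is in 8 terms and the other 4 are in 1 each. HMGA2 shares 6 of its 8 terms with TGFB1 (75.0%) and 3 with BMP7. The class meets the ligands in all 10 of its terms, a larger number than for any other pair of classes. Ligands stand in 86.5% of all listed terms, and the difference was not tested. The transcription factor ONECUT2 is in organ morphogenesis with APLP1 and EREG (8.30-fold in the authors' deposited table). PLAG1, a zinc finger activator, is in positive regulation of gene expression, a term of 262 background genes. PRDM8 is in oligodendrocyte development with TGFB1 as its sole partner (22.1-fold and an unadjusted p of 0.0854 by the authors' deposited table), and HIVEP3 is in signal transduction.

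Intracellular signalling proteins and adaptors number 7. ANKRD1, an ankyrin repeat protein of muscle and nucleus, and APBB1, the FE65 adaptor that binds the tail of amyloid precursor family proteins, are in 4 terms each. All 8 of these memberships are in terms with a p under 0.05 in the authors' deposited table. ANKRD1 stands with TGFB1 in each of its 4 terms, and APBB1 in 3 of 4. FGF14 belongs to the intracellular fibroblast growth factors that act on sodium channels. It is in signal transduction and cell-cell signaling. ITPKA, an inositol trisphosphate kinase, SH2B3, an adaptor that restrains cytokine receptors, and SYDE1, a GTPase-activating protein, are in signal transduction alone. APLP1, APBB1, STX1A, FGF14 and ITPKA are best known from neurons, and no term with a neuronal name is listed. These genes come from no marker list used here, and none of the 8 genes of the neuron marker list is named.

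**Figure D2:**
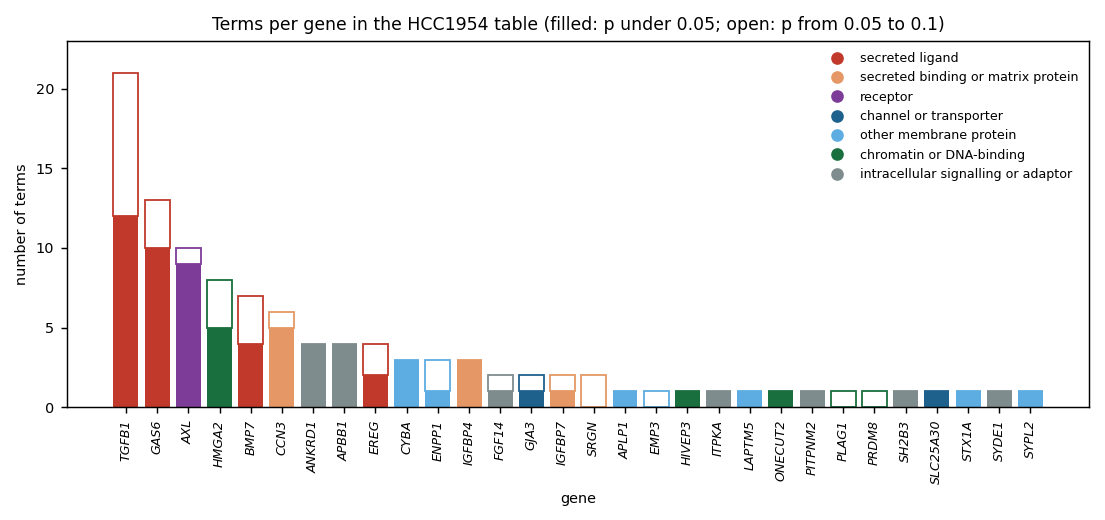
Bars give the number of terms per gene in the authors' deposited table, coloured by protein class, with the filled part for terms with an unadjusted p under 0.05 and the open part for the rest. TGFB1 is in 21 terms, 12 of them under 0.05, and AXL in 10, 9 of them under 0.05.

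Ligands stand in 32 of the 37 terms (86.5%), and TGFB1 alone in 21, so any class could be expected to meet them often. A ligand stands in 10 of the 10 terms of chromatin genes, 9 of the 10 of the receptor and 7 of the 8 of intracellular proteins. For binding proteins and for other membrane proteins it is 7 of 10 each, and for channels or transporters 1 of 2. How these shares differ from 86.5% was not tested. Between classes other than the ligands the largest number is 4, for other membrane and intracellular proteins. Most terms cross a class border, as 21 terms hold genes of 2 classes, 7 of 3, 2 of 4 and 1 of 5, and 6 hold a single class. The commonest mix is ligand with receptor alone, in 8 terms (21.6%), then ligand with chromatin gene alone, in 6 (16.2%).

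**Figure D3:**
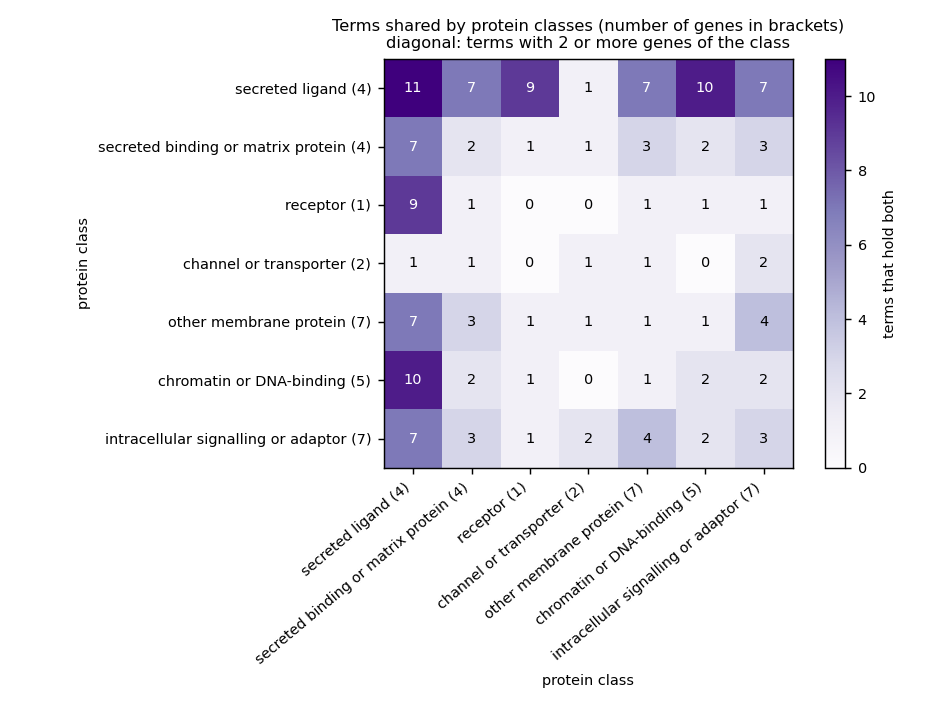
Each cell gives the number of HCC1954 terms that hold genes of both classes, with the number of genes per class in brackets, and the diagonal gives terms with at least 2 genes of that class. The ligand row holds 11 on the diagonal and 10, 9, 7 and 1 elsewhere, while off that row and column no pair of classes passes 4.

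With 2 genes linked where at least 1 term holds both, all 30 genes fall in a single group, through 105 of 435 possible pairs (24.1%). The single group depends in part on the broadest term, signal transduction (1161 background genes), which by itself links its 10 genes to each other. Without that term the largest group held 26 genes. When the terms with p of 0.05 or more were dropped instead, the largest group held 21. Most links are thin, since 88 pairs meet in 1 term and 17 in 2 or more. With 2 shared terms asked for, 12 genes stay linked: TGFB1, GAS6, AXL, HMGA2, BMP7, CCN3, ANKRD1, APBB1, EREG, CYBA, ENPP1 and IGFBP4. With 3 asked for, 8 do, as CCN3, EREG, ENPP1 and IGFBP4 drop out. Leaving out single genes splits the group in 4 cases. Without TGFB1, PRDM8 stands apart; without AXL, STX1A; without EREG, APLP1 and ONECUT2; and without GJA3, the transport genes named above. GAS6, HMGA2 and BMP7 can each be left out with the other 29 genes still linked. Leaving out TGFB1 takes 8 terms below 2 genes, and leaving out GAS6 or AXL takes 7.

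The 37 terms carry 28 distinct gene sets. AXL with GAS6 is printed as the whole of 6 terms. The sets AXL, GAS6 and TGFB1; ANKRD1, CYBA and TGFB1; BMP7 and TGFB1; and HMGA2 and TGFB1 are each printed as 2 terms. When terms with a Jaccard index of 0.5 or more over their genes are joined, 12 blocks are left. The largest takes in 24 terms and 12 genes. Transport, organ morphogenesis, signal transduction, cell-cell signaling, oligodendrocyte development and biomineral tissue development are among the 9 terms that join no other.

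In all, 14 of the 30 genes (46.7%) are in 1 term. They are APLP1, EMP3, HIVEP3, ITPKA, LAPTM5, ONECUT2, PITPNM2, PLAG1, PRDM8, SH2B3, SLC25A30, STX1A, SYDE1 and SYPL2. None is a ligand, a binding protein or the receptor. Signal transduction holds 4 of them, transport another 4, and the remaining 6 are spread over other terms. Of these 14 genes, 10 sit in a term of more than 250 background genes, and 6 of the 37 terms are that large. The other 4 of the 14 are STX1A and PRDM8, in terms of 10 and 23 background genes, and APLP1 and ONECUT2, in a term of 92. Among the genes in more than 1 term, all but CYBA, ENPP1 and SRGN also have a term of more than 250 background genes. A broad term thus does not set the 14 apart. For MDA231, 1047 of 2646 named genes (39.6%) are in 1 term, and the difference between the tables was not tested. MDA231 terms hold a median of 12.0 listed genes against 2.00 for HCC1954, and none of them has fewer than 4. The gene with most terms reaches 7.32% of terms there and 56.8% here.

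**Figure D4:**
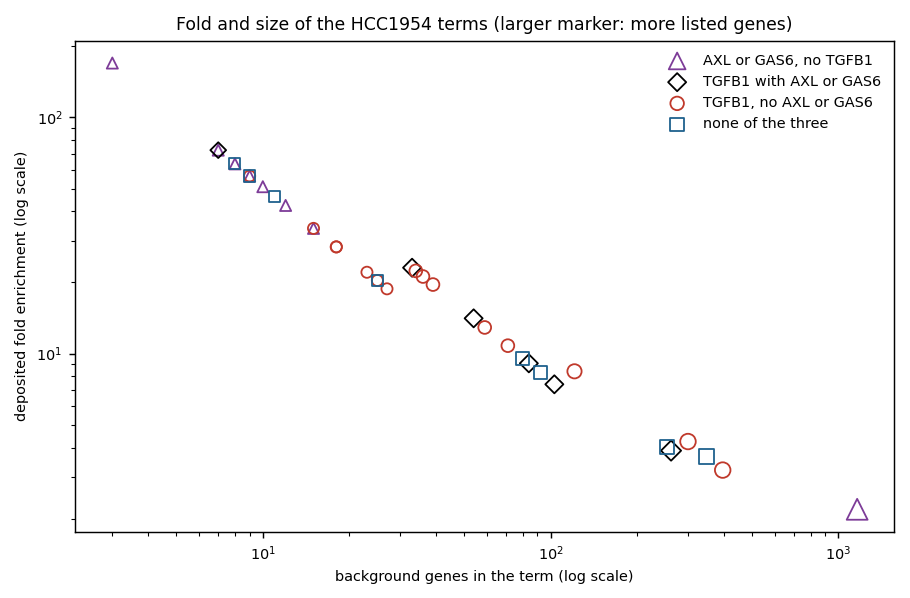
Fold enrichment in the authors' deposited table (log axis) against the number of background genes of each HCC1954 term (log axis), with marker shape for the presence of TGFB1, AXL and GAS6 and marker size for the number of listed genes. Folds run from 2.19 for the broadest term, with 1161 background genes, to 170 for the smallest, with 3, along 1 band for each number of listed genes.

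Fold followed from the size of the term and the count of genes in it, as the ratio is built from them. The median fold was 21.2 in the authors' deposited table. Terms of 2 genes number 19, of 3 genes 11, of 4 genes 3 and of 5 genes 3, and signal transduction has 10. At the background share, signal transduction would hold 4.56 listed genes and negative regulation of cell proliferation 1.56 where it holds 5 (BMP7, EMP3, EREG, IGFBP7 and TGFB1; 3.21-fold and an unadjusted p of 0.0672 by the authors' deposited table). For 2-gene terms that number is far below 1, such as 0.0393 for secretion by cell.

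Related genes were looked up in both tables by family. AXL and GAS6 are named for HCC1954 out of 5 genes of the TYRO3, AXL and MERTK system, and none for MDA231. Of 14 ligands of the transforming growth factor superfamily, TGFB1 and BMP7 are named here and TGFB2 and INHBB for MDA231. Of 16 receptors and SMADs of that family none is named here, and 6 are for MDA231: TGFBR2, ACVR1, ACVR2A, BMPR1A, SMAD1 and SMAD4. EREG is the single one of 11 EGF family ligands here, and EGF for MDA231. No ERBB receptor of 4 is named for HCC1954, ERBB2 included, while ERBB2 and ERBB3 are for MDA231. For the insulin-like growth factor system, IGFBP4 and IGFBP7 are named out of 12 genes here, and the receptors IGF2R and INSR for MDA231. A gene that is listed but in no listed term goes unnamed, so these names show no absence from either list, and the lists differ greatly in size.

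Smaller families gave APLP1 and APBB1 out of 6 genes of the amyloid precursor and FE65 families here and APP for MDA231. CCN3 is named here out of 6 CCN genes and CCN1 for MDA231. Of 4 FGF homologous factors it is FGF14 here and FGF13 there. HMGA2 of 2 HMGA genes and CYBA of 8 NADPH oxidase genes are named here alone. None of 6 transcription factors of the epithelial to mesenchymal transition is named in either table. None of 7 genes for activation of latent transforming growth factor beta, 7 AKT and PI3K genes or 6 YAP and TEAD genes is named here. MDA231 names ITGAV, PIK3R1, and TEAD3 with TEAD4 from these. The 6 lists of cell type markers (microglia, astrocyte, oligodendrocyte, neuron, endothelial and epithelial), 46 genes in all, have no member named for HCC1954. For MDA231 they have MAP2, PECAM1 and 5 epithelial genes. HCC1954 has 30 named genes out of 16792 background genes, and MDA231 has 2646 named genes. Family and marker counts are thus not comparable between the lines, and their differences were not tested.

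The 30 genes lie on 15 chromosomes, with 5 on chromosome 19 (TGFB1, AXL, APLP1, EMP3 and SYDE1). Chromosome 19 carries 7.38% of protein-coding genes, and the count on it was not tested. Gene length runs from 7586 bases for SYDE1 to 691654 for FGF14. Since the fluorinated base enters new RNA in place of uracil, the uridines of each principal transcript were counted. The named genes have between 120 (CYBA) and 4753 (ONECUT2) uridines, with a median of 602 against 644 for 19659 protein-coding genes and 794 for 2638 genes named for MDA231, and 14 of the 30 lie above the median of all protein-coding genes. The order of the first 2 medians turns with the transcript chosen: with the longest coding transcript, an alternative added after the data were seen, they are 736 and 702, and 871 for MDA231. As a percent of bases the median is 21.2, against 24.4 and 25.1, and 18 of the 30 genes lie below the median of all protein-coding genes. The ligands differ among themselves, with 17.5% for TGFB1, 17.6% for GAS6, 21.6% for BMP7 and 33.0% for EREG, while AXL has 23.7%. Which transcripts these cells make was not known here, and whether uridine content played a part in the listing was not tested.

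**Figure D5:**
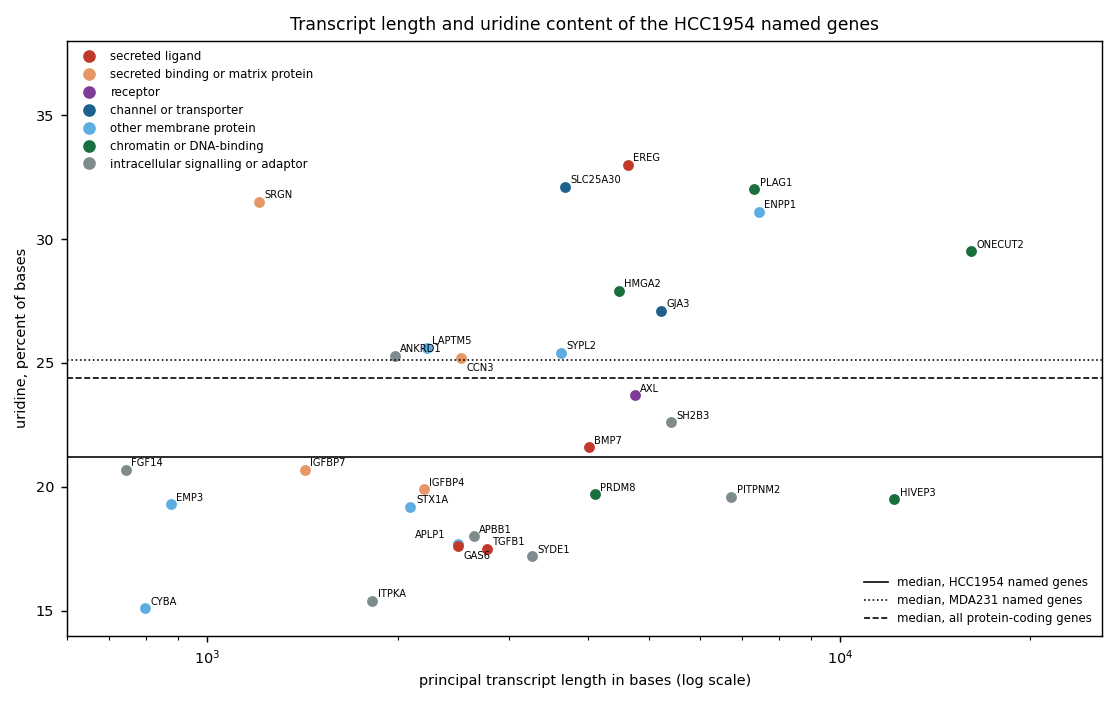
Percent uridine against length (log axis) of the principal GENCODE transcript of each HCC1954 gene, coloured by protein class, with lines at the medians of the HCC1954 genes (21.2), the MDA231 genes (25.1) and all protein-coding genes (24.4). EREG is at the top with 33.0% and CYBA at the bottom with 15.1%.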

How the data were processed

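Per the labels, 4 input and 4 IP libraries were made for each line, with 2.5 µg of antibody per brain. The submitters' processing notes name the tools STAR and HTSeq and the builds GRCh38 and GRCm38. How the submitted genes were selected, and with which enrichment tool, is not given in the sources used here. Per the file headers, the deposited tables give for each term the number of listed and background genes, the percent of submitted genes, an unadjusted and adjusted p-value (Bonferroni, Benjamini) and a fold enrichment, beside a false discovery rate that was not used. The deposited fold is the ratio of listed share to background share. No test was run here, and IP against input could not be tested because no value per library entered.

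All 30 identifiers had a symbol. Each gene was given 1 protein class from textbook knowledge and some a second, used as an alternative. SYDE1, SH2B3, PRDM8 and PLAG1 were classed after the table was read. The members, classes and lists were chosen with earlier results of these data known. The genes named are all 30, and MDA231 genes only from the family and marker lists. Positions and transcripts are from GENCODE release 29 (APPRIS principal, then longest coding), and promoter sequences from RefSeq on GRCh38.p14. The linking and motif steps were tested on made-up data. Alternatives were terms with p under 0.05, terms of at least 3 genes, repeated gene sets counted once, joined terms, stricter links, second classes and single genes left out. Python 3.11.15, SciPy 1.17.1 and Matplotlib 3.10.9 were used.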

Additional observations from a re-analysis of the deposited data

How the results depend on the processing

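Of 26 alternatives to 9 results, 21 left the value within 1.5 times (counts) or within its interval or spread (shares). Some of the 21 had little room to move, such as the largest linked group with 1 gene left out (28 or 29 genes in place of 30). The limit of 1.5 times is wide: terms with a ligand or the receptor went from 33 to 22 and still counted as within it. The uridine median was judged against the spread between genes, not against an error of the median. The interval of the ligand share treats memberships as independent, which they are not, so it is only a nominal yardstick. TGFB1 was in 12 terms when only terms with an unadjusted p under 0.05 were kept and in 13 when terms had to hold 3 genes, in place of 21. With 2 shared terms asked for, the largest linked group held 12 genes in place of 30, and joining terms at a Jaccard index of 0.5 left 12 blocks in place of 28 gene sets. All these alternatives keep fewer terms or links by construction. Without TGFB1 the ligands held 27.6% of memberships in place of 41.7%. EMP3, PLAG1, PRDM8 and SRGN are in no term with a p under 0.05. The second classes, in which FGF14 and CCN3 count as ligands, gave 49.1%. Chosen after the data were seen, the longest coding transcript gave a median of 22.6% uridine (all protein-coding genes 24.7%) and turned the order of the uridine numbers (736 against 702). That alternative is among 6 added to the 20 planned. The others added are promoter starts within 1000 bases and leaving out GAS6, AXL, HMGA2 or BMP7. No paired analysis was possible because the tables hold no value per library, and for the same reason leaving out replicates was not run. Depth and the spread between libraries are unknown here.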
